A study of Homo sapiens with 12 samples.

Results

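The 10 genes described here encode inflammatory cytokines, secreted proteins by which cells signal to leukocytes and to each other. They are IL1A, IL1B, IL18 and IL33 of the interleukin-1 family, IL6, IL11 and LIF of the interleukin-6 family, IL24 of the interleukin-10 family, and the colony-stimulating factor genes CSF2 and CSF3. They were found by name among the 54261 gene symbols of the count table, and all 10 were among the 17572 genes that passed a filter on low counts. They were selected on earlier results of these data, the fold changes with lactate in SW480 among them, so their values in that comparison are a description and carry no test. RNA was sequenced from 2 established human lines of colorectal adenocarcinoma, SW480 and DLD1, each grown with lactate or as a control. The groups were SW480 with lactate, SW480 control, DLD1 with lactate and DLD1 control, with 3 libraries each that the submitters call biological replicates. Lactate is the end product of glycolysis, which cells release and take up again. The labels give no dose or time of treatment, no substance added to the controls and no further genetic change.

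Interleukin-1 alpha and beta act through the receptor IL1R1 with its partner IL1RAP and switch on NF-kB and AP-1 in the receiving cell, and the same factors in turn switch on many cytokine genes. Interleukin-1 beta and interleukin-18 are made as precursors that caspase-1 cuts, whereas interleukin-1 alpha and interleukin-33 can act when a damaged cell releases them. Cytokines of the interleukin-6 family share the receptor chain gp130, encoded by IL6ST, and signal through JAK kinases and STAT3, and the colony-stimulating factors drive the production and activation of granulocytes and macrophages. In tumours of the colon such cytokines come from both cancer cells and stroma.

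Total counts ran from 12302311 to 22662063 per library. Levels are given as counts scaled to the library's total (CPM), as mean ± standard deviation (SD) over n = 3 libraries of a group, and values in single libraries follow the order of replicates 1, 2 and 3. The libraries labelled SW480 held some markers of colorectal epithelium and lacked others. The keratin genes were abundant: KRT8 averaged 908 ± 83.3 CPM with lactate and 1316 ± 110 in controls, KRT18 474 ± 40.6 and 738 ± 71.8, and KRT19 154 ± 13.8 and 95.8 ± 5.55. EPCAM, the epithelial adhesion molecule, averaged 0.609 ± 0.220 CPM with lactate and 0.964 ± 0.184 in controls, and KRT20 had 0 counts in all 6. The E-cadherin gene CDH1 had 1.28 ± 0.0852 CPM with lactate and 1.45 ± 0.131 in controls, whereas DCN, a proteoglycan gene of fibroblasts, had 65.4 ± 8.82 and 81.2 ± 5.73. COL1A2 and PDGFRA, also on the fibroblast list, were low, at 0.734 ± 0.185 and 1.77 ± 0.317 CPM with lactate. In controls they had 0.931 ± 0.314 and 1.73 ± 0.459. Scaled to CPM per kilobase of merged exons, COL3A1 of that list had 18.6 ± 0.559 with lactate and 20.9 ± 1.52 in controls. COL1A1 had 4.96 ± 0.0437 and 2.15 ± 0.194. The epithelial markers CDX2, VIL1 and LGR5 averaged 0.0166, 0.0124 and 0.0280 on that scale with lactate. In SW480 controls they averaged 0.0300, 0.00670 and 0.0215. CDX2 in DLD1 had 43.5 ± 0.809 with lactate and 33.4 ± 10.3 in controls. In DLD1, EPCAM averaged 671 ± 14.6 CPM with lactate and 701 ± 13.8 in controls, and CDH1 837 ± 68.7 and 695 ± 51.9. The SW480 libraries are therefore called by their label only. DLD1 controls 2 and 3 stood apart from their group. Over 12037 genes, their log2 deviation from the remaining libraries of the group had an SD of 0.537 (control 2) and 0.442 (control 3), and at most 0.261 in any other library. Across genes, which are not independent, this deviation had a Spearman's rho with transcript GC content of -0.78 in control 2 and of 0.81 in control 3. Other libraries showed it too, at -0.60 in SW480 lactate 3, 0.49 in SW480 lactate 1, -0.51 in DLD1 lactate 2 and 0.45 in DLD1 lactate 3.

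The start regions of genes with contrasting levels in SW480 are shown as RefSeq gives them on GRCh38.p14, each as the 250 bases before the gene's start, read 5′ to 3′ on the gene's strand, with motif matches in capitals. IL1A, on the minus strand at chr2:112784494-112784743, had the highest group mean per length of the 10 genes in SW480 with lactate, though it overlapped LIF. IL6, on the plus strand at chr7:22726950-22727199, was abundant in SW480 with and without lactate. IL24, on the plus strand at chr1:206897193-206897442, had the largest fold change in SW480.
IL1A: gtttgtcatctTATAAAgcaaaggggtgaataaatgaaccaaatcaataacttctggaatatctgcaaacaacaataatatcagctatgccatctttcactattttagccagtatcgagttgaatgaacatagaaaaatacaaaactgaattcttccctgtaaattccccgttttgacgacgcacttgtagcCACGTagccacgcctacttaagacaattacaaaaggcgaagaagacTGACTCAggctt
IL6: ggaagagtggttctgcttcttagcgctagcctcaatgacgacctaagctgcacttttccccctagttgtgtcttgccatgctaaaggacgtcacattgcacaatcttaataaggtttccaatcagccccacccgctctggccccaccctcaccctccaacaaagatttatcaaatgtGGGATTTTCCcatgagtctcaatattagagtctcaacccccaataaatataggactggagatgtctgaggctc
IL24: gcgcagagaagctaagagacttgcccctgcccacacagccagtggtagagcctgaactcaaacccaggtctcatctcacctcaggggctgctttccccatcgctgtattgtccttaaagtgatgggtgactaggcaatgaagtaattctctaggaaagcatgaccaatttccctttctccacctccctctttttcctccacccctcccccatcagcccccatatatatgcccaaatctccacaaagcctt
In IL1A the capitals mark TATAAA at bases -239 to -234 before the start. Next in reading order are the reverse complement of the hypoxia response core ACGTG at bases -58 to -54 and the AP-1 motif TGACTCA at bases -12 to -6. In IL6 they mark a match to the NF-kB consensus, GGGATTTTCC, at bases -73 to -64. The search covered the NF-kB consensus, the AP-1 motif TGANTCA, the cAMP response element TGACGTCA and ACGTG on both strands, and TATAAA on the gene's strand only. Of 35116 such windows, 9.96% hold the NF-kB consensus, 6.57% TGANTCA, 1.65% TGACGTCA, 18.5% ACGTG and 6.80% TATAAA. The searched letters are not in the IL24 window. Windows were at hand for 7 of the 10 genes, and that of IL11 holds TGAGTCA at bases -96 to -90, while those of IL1B, CSF2 and IL33 hold no match. RefSeq gives IL1A a second start, whose overlapping window holds TGACTCA and TGAGTCA. A match is a run of letters and not a measured binding site. IL1A and IL1B are neighbours on chromosome 2, with 45257 bases between them. IL24 lies 28219 bases from IL20 on chromosome 1, LIF 16069 bases from OSM on chromosome 22, and CSF2 10584 bases from IL3 on chromosome 5.

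The comparison of lactate with control in SW480 gave higher levels for the interleukin-1 pair, IL24, both colony-stimulating factors and LIF. IL1A, whose product is active as made and can signal from dying cells, had 166, 203 and 179.7 CPM with lactate, against 67.3, 98.8 and 74.0 CPM in controls. IL1B, the secreted form of interleukin-1, had 98.6, 104 and 73.5 CPM with lactate, against 14.7, 29.9 and 16.5 CPM in controls. In both genes every lactate library lay above every control library, and control 2 was the highest of the controls. The fitted log2 fold changes, with the standard error (SE) from the model, were 1.22 ± 0.16 for IL1A and 2.21 ± 0.23 for IL1B. Scaled to merged exon length, IL1B stood at 0.346 ± 0.0632 of the IL1A level with lactate and at 0.170 ± 0.0325 in controls (SD, n = 3 each). In such bulk RNA, fewer cells making a transcript and less of it per cell cannot be told apart.

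IL24, a cytokine of the interleukin-20 subfamily that acts mainly on epithelial cells, had 10.2, 11.7 and 16.4 CPM with lactate, against 1.61, 1.46 and 1.91 CPM in SW480 controls. CSF3, which encodes the granulocyte factor G-CSF, had 27.4, 32.2 and 27.8 CPM with lactate, against 3.41, 6.91 and 4.45 CPM in controls. CSF2, which encodes GM-CSF, had 1.19, 0.982 and 0.925 CPM with lactate, from 19, 19 and 13 reads, against 0.193, 0.488 and 0.289 CPM in controls, from 3, 6 and 5 reads. None of these 3 genes overlapped between the groups, but CSF2 rests on few reads. Their log2 fold changes were 2.94 ± 0.25 for IL24, 2.61 ± 0.22 for CSF3 and 1.73 ± 0.40 for CSF2. LIF, a gp130 cytokine known for holding stem cells undifferentiated, had 315, 342 and 279.5 CPM with lactate, against 198, 246 and 204 CPM in SW480 controls. Its groups did not overlap either, and its log2 fold change was smaller, at 0.56 ± 0.12.

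The other 4 genes did not follow. IL6, the acute-phase cytokine, had 81.5, 84.4 and 75.6 CPM with lactate, against 78.7, 103 and 76.8 CPM in SW480 controls, with a log2 fold change of -0.07 ± 0.14. Its groups overlapped. IL18, a cytokine that epithelia make without stimulation, had 70.1, 71.6 and 82.5 CPM with lactate, against 90.6, 85.9 and 93.9 CPM in controls. Every lactate library of IL18 lay below every control, at a log2 fold change of -0.25 ± 0.10. IL11, a gp130 cytokine active on stroma and epithelium, had 0.214 to 0.258 CPM with lactate and 0.231 to 0.894 in controls. IL33, an alarmin stored in the nucleus, had 0.250 to 1.21 CPM with lactate and 0.163 to 0.578 in controls. Both were near the limit of these libraries and overlapped between groups.

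A gene is called where the Benjamini-Hochberg adjusted p of edgeR's quasi-likelihood test over all 17572 genes is under 0.05. By that rule 6 of the 10 cytokine genes were called higher and 0 lower in SW480, where 12.4% of all tested genes were called, 6.83% higher and 5.59% lower. Groups did not overlap, with lactate higher, for 6 cytokine genes and 20.6% of all genes, and with lactate lower for 1 and 20.4%. The median log2 fold change was 0.94 over the 10 genes and -0.01 over all tested genes. Since these genes were chosen with this comparison known, nothing is read from those shares. CSF2 lost its call without SW480 control 1 (log2 fold change 1.47) or control 3 (1.67), and LIF without control 1 (0.50). IL18 gained one with SW480 fitted alone (-0.24), and also without DLD1 control 2 or without DLD1 controls 2 and 3 (-0.25 in both).

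**Figure D1:**
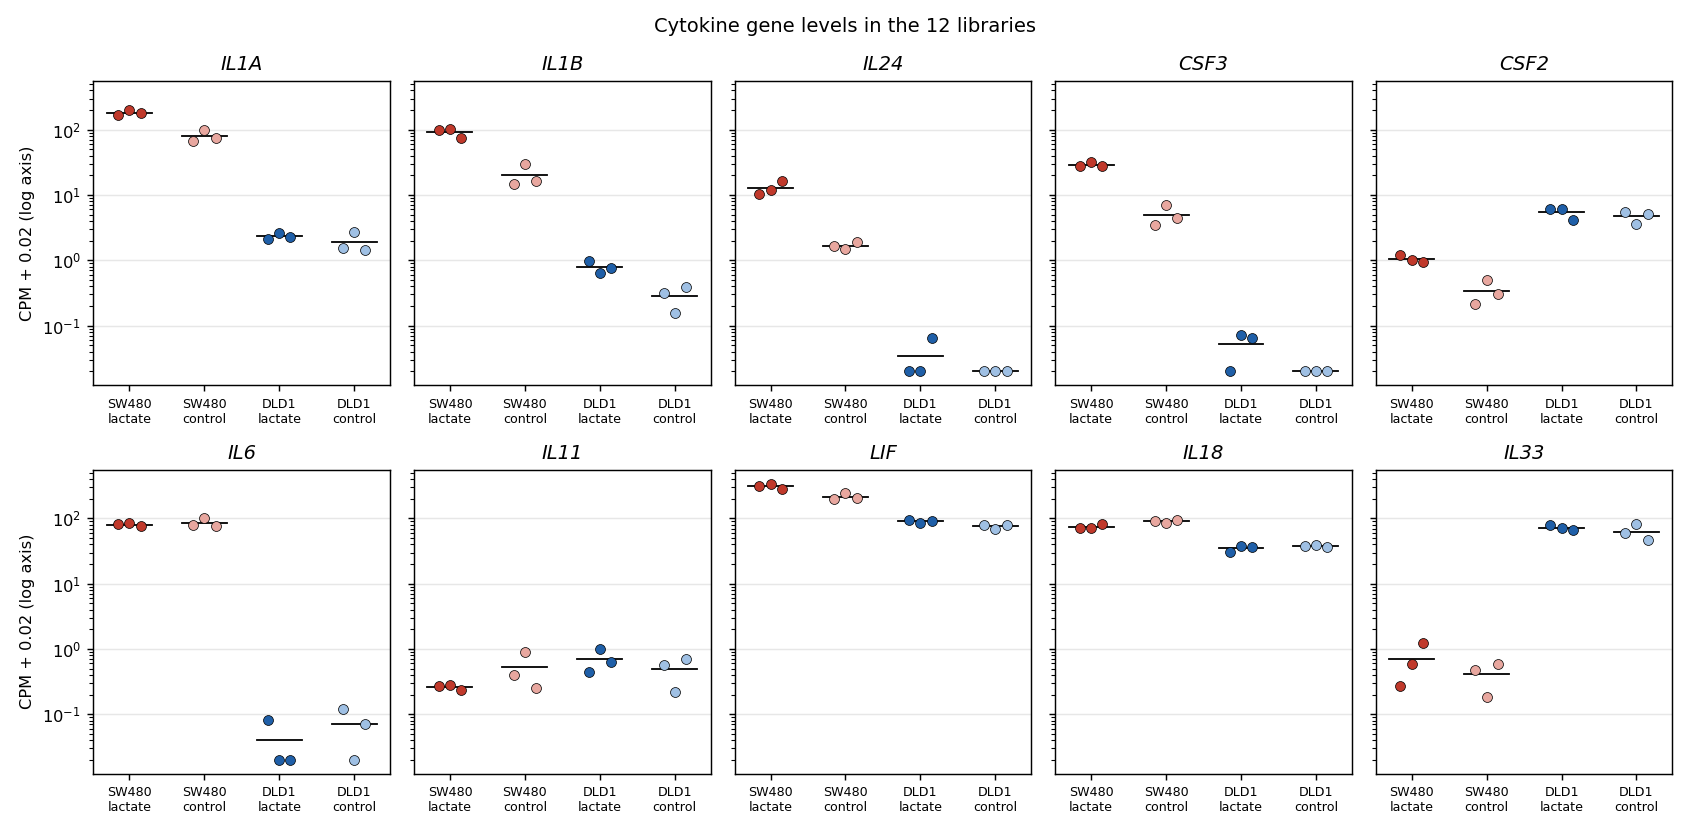
CPM of each cytokine gene in every library, on a log axis with 0.02 added so that libraries without reads can be drawn. Points are libraries and bars are group means, and for IL1A, IL1B, IL24, CSF3, CSF2 and LIF all 3 SW480 lactate points lie above the 3 SW480 control points.

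Ranked by counts per kilobase of merged exons after scaling to CPM, which allows genes to be compared, IL1A led in SW480 with lactate at 86.2 ± 8.78, followed by LIF at 78.7 ± 7.92, and their libraries overlapped. IL6 came next at 38.9 ± 2.18, then IL1B at 29.7 ± 5.20 and IL18 at 28.4 ± 2.57, of which IL1B and IL18 overlapped. CSF3 had 13.1 ± 1.20, IL24 6.46 ± 1.62 and CSF2 1.31 ± 0.174, and IL33 and IL11 were at the bottom. In SW480 controls LIF led at 54.5 ± 6.57, and IL6 at 41.6 ± 6.95, IL1A at 37.7 ± 7.83 and IL18 at 34.3 ± 1.54 followed, each overlapping the next. IL1B had 6.58 ± 2.69 on this scale in controls, CSF3 2.22 ± 0.809 and IL24 0.839 ± 0.115. The 10 genes together took 737 to 851 CPM with lactate and 456 to 573 CPM in SW480 controls. LIF was the most abundant of them by count in all 6 SW480 libraries, with 37.9% to 43.5% of that sum.

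The same comparison in DLD1 used libraries apart from the SW480 ones and called none of the 10 genes. IL1B had 0.969, 0.619 and 0.750 CPM with lactate, from 16, 12 and 17 reads, against 0.298, 0.134 and 0.365 CPM in DLD1 controls, from 6, 2 and 7 reads. Every lactate library was above every control, and the log2 fold change was 1.44 ± 0.59 (95% interval 0.17 to 2.70, edgeR adjusted p = 0.226). LIF had 94.7, 84.5 and 92.2 CPM with lactate, against 78.7, 68.3 and 80.2 CPM in DLD1 controls. Its groups did not overlap either, with a log2 fold change of 0.23 ± 0.12 (-0.02 to 0.48, edgeR adjusted p = 0.300). IL1A had 2.12, 2.63 and 2.25 CPM with lactate, against 1.54, 2.68 and 1.41 CPM in DLD1 controls. It overlapped because of control 2, with a log2 fold change of 0.33 ± 0.26 (-0.23 to 0.90, edgeR adjusted p = 0.503).

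CSF2, which had few reads in SW480, was clearly measured in DLD1, with 6.18, 6.09 and 4.06 CPM with lactate, against 5.41, 3.55 and 5.10 CPM in controls. The groups overlapped, with a log2 fold change of 0.18 ± 0.23 (-0.32 to 0.67, edgeR adjusted p = 0.695). IL33 had 78.2, 72.0 and 65.7 CPM with lactate, against 58.8, 83.1 and 46.9 CPM in DLD1 controls. Controls 2 and 3 were its highest and lowest libraries, and its log2 fold change was 0.17 ± 0.21 (-0.28 to 0.62, edgeR adjusted p = 0.682). IL18 averaged 35.2 ± 3.79 CPM with lactate and 37.4 ± 1.40 in DLD1 controls, at a log2 fold change of -0.11 ± 0.11 (edgeR adjusted p = 0.573). IL11 averaged 0.674 ± 0.282 CPM with lactate and 0.475 ± 0.246 in DLD1 controls, at 0.45 ± 0.50 (edgeR adjusted p = 0.640). IL24, CSF3 and IL6 were at the floor in DLD1. Over 3 libraries a group they had 1, 2 and 1 reads with lactate, against 0, 0 and 3 reads in controls, so a change was not detectable at this depth.

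In DLD1, edgeR called 0 of the 10 genes, and 0.381% of all tested genes, 0.336% higher and 0.0455% lower. At an unadjusted p under 0.05 edgeR's test and DESeq2 each gave 1 of them and limma-voom gave 0, and after adjustment DESeq2 and limma-voom called 0. Groups did not overlap, with lactate higher, for 2 of the 10 genes and for 9.82% of all, and with lactate lower for 0 of them and for 9.39%. Over the 7 genes with more than 3 reads in both DLD1 groups the median log2 fold change was 0.23, against 0.02 over all tested genes. LIF transcripts have a GC content of 56.9% and IL33 transcripts one of 34.7%, and the part of the GC trend in DLD1 controls 2 and 3 in these values was not tested directly. With the trend along GC content and transcript length removed within each library, LIF was at -0.03, and IL33 at 0.51 with an edgeR adjusted p of 0.0124. Without control 3, IL33 was at -0.01, and without the filter on low counts IL1B was called at 1.44 (edgeR adjusted p = 0.0193). Of all tested genes, 3.08% were called in DLD1 with the trend removed and 2.37% without the filter.

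**Figure D2:**
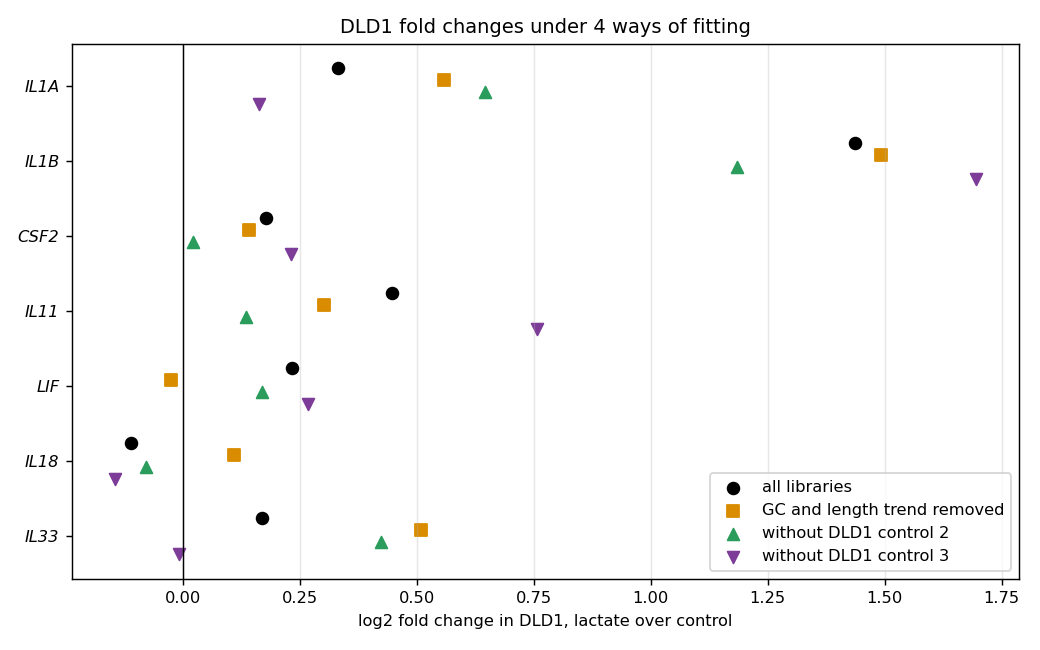
Log2 fold changes of lactate over control in DLD1 for the 7 cytokine genes with enough reads, under 4 ways of fitting. LIF lies at 0.23 in the fit over all libraries and at -0.03 with the trend along GC content and length removed, and IL33 at 0.17 and 0.51.

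Whether the response to lactate differed between the lines was tested as the DLD1 effect minus the SW480 effect, which shares its SW480 libraries with the comparison known beforehand. Genes selected for a rise in SW480 are thereby set toward negative values, so the differences are a description. IL24, CSF3 and IL6, with 0 to 3 reads in a DLD1 group, have too few reads for such a difference to be measured. EdgeR's test called 0 of the 10 genes, against 0.728% of all tested genes, and 2 had an unadjusted p under 0.05. DESeq2 and limma-voom also called 0, with 3 and 4 at an unadjusted p under 0.05. CSF2 had a difference of -1.55 ± 0.47 on the log2 scale (95% interval -2.55 to -0.56) and IL1A one of -0.89 ± 0.31 (-1.56 to -0.22). LIF had -0.32 ± 0.16 (-0.68 to 0.03), and IL1B -0.78 ± 0.72 (-2.31 to 0.75). Without DLD1 control 2 the difference of CSF2 was called, at -1.71, in a fit that called 3.29% of all tested genes. Once the trend along GC content and length was removed, CSF2 (-1.75) and LIF (-0.55) were called, and without the filter on low counts IL1A was (-0.88). Of all tested genes, 7.92% were called with the trend removed and 2.32% without the filter.

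**Figure D3:**
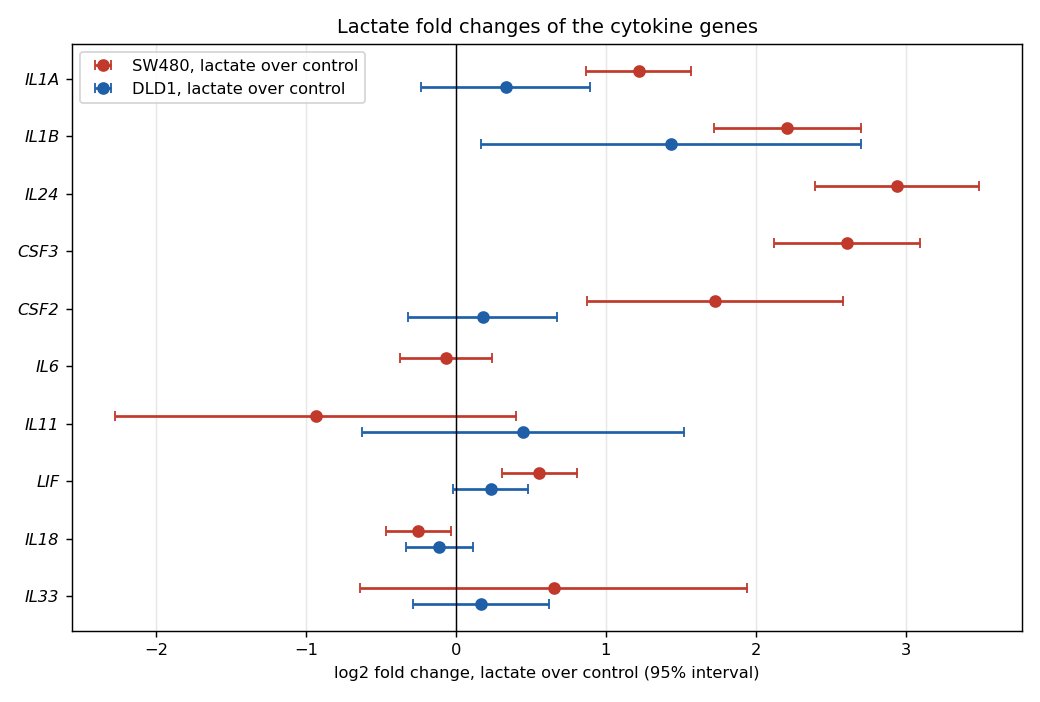
Log2 fold changes of lactate over control with 95% intervals for each cytokine gene, SW480 in red above DLD1 in blue. IL24, CSF3 and IL6 have no DLD1 point because their reads in DLD1 were at the floor, and the DLD1 intervals of IL1A (-0.23 to 0.90), CSF2 (-0.32 to 0.67) and LIF (-0.02 to 0.48) include 0.

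The control libraries of the lines differed in which cytokine genes they carried. DLD1 controls had more CSF2 and IL33, and SW480 controls more of IL1A, IL1B, IL24, CSF3, IL6, LIF and IL18. EdgeR called 9 of the 10, 2 higher and 7 lower in DLD1, where 70.8% of all tested genes were called, 33.6% higher and 37.3% lower. IL33 averaged 62.9 ± 18.5 CPM in DLD1 controls and 0.397 ± 0.213 in SW480 controls, a log2 fold change of 7.14 ± 0.36 (edgeR adjusted p = 1.08e-10). CSF2 averaged 4.69 ± 0.997 CPM in DLD1 controls and 0.323 ± 0.150 in SW480 controls, at 3.82 ± 0.34 (edgeR adjusted p = 9.50e-08). Neither gene overlapped between the lines. IL1A averaged 1.87 ± 0.700 CPM in DLD1 controls and 80.0 ± 16.6 in SW480 controls, at -5.51 ± 0.22 (edgeR adjusted p = 8.63e-12). IL1B averaged 0.265 ± 0.119 CPM in DLD1 controls and 20.4 ± 8.31 in SW480 controls, at -6.23 ± 0.38 (edgeR adjusted p = 1.35e-09). The DLD1 controls lay below the SW480 controls in both genes.

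LIF averaged 75.7 ± 6.49 CPM in DLD1 controls and 216 ± 26.1 in SW480 controls, at -1.58 ± 0.12 (edgeR adjusted p = 1.48e-08). IL18 stood at 37.4 ± 1.40 CPM in DLD1 controls and 90.2 ± 4.03 in SW480 controls, at -1.33 ± 0.11 (edgeR adjusted p = 2.48e-08). IL11 overlapped between the lines, at 0.475 ± 0.246 CPM in DLD1 controls and 0.504 ± 0.347 in SW480 controls, and was not called (-0.04 ± 0.56, edgeR adjusted p = 0.958). IL6 had 3 reads over the DLD1 controls, against 86.0 ± 14.4 CPM in SW480 controls. IL24 and CSF3 had 0 reads over the DLD1 controls. Against a floor of 3 counts over that group, their SW480 control levels were at least 30.04-fold higher for IL24 and at least 89.1-fold higher for CSF3. By CPM per kilobase, IL33 at 19.3 ± 5.67 and LIF at 19.1 ± 1.64 led in DLD1 controls and overlapped, ahead of IL18 at 14.2 ± 0.533 and CSF2 at 5.96 ± 1.27. In DLD1 with lactate the order was LIF at 22.8 ± 1.34, IL33 at 22.1 ± 1.92, IL18 at 13.4 ± 1.44 and CSF2 at 6.91 ± 1.52, and LIF and IL33 overlapped.

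Of 18 receptor genes for these cytokines, 15 passed the filter. In DLD1 controls against SW480 controls 4 were called higher and 11 lower, where 33.6% and 37.3% of all tested genes were. OSMR, a gp130 partner for oncostatin M, averaged 0.142 ± 0.104 CPM in DLD1 controls and 429 ± 33.7 in SW480 controls (log2 fold change -11.50 ± 0.20, edgeR adjusted p = 1.74e-15). LIFR, the LIF receptor chain, averaged 0.247 ± 0.0761 CPM in DLD1 controls and 149 ± 7.25 in SW480 controls (-9.30 ± 0.18, edgeR adjusted p = 5.57e-15). IL6ST averaged 248 ± 105 CPM in DLD1 controls and 468 ± 13.9 in SW480 controls. IL20RA, a receptor chain for IL24, averaged 92.0 ± 6.73 CPM in DLD1 controls and 0.920 ± 0.656 in SW480 controls (6.50 ± 0.26, edgeR adjusted p = 6.91e-12). The line with LIF at the higher level also had the higher LIFR level, and the line with IL24 reads had the lower IL20RA level. IL20RB and IL22RA1, also on the receptor list, had 1.40 ± 0.0173 and 1.94 ± 0.229 CPM per kilobase of merged exons in SW480 controls. In DLD1 controls IL20RB had 0.529 ± 0.199 and IL22RA1 4.30 ± 1.01 on that scale. IL20RA, on the same scale, had 19.4 ± 1.42 in DLD1 controls and 0.195 ± 0.139 in SW480 controls. The IL20RB mean was thus higher in SW480 controls, and those of IL22RA1 and IL20RA in DLD1 controls. CSF2RA and CSF2RB, the GM-CSF receptor genes, stayed at or under 0.723 CPM in every library.

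**Figure D4:**
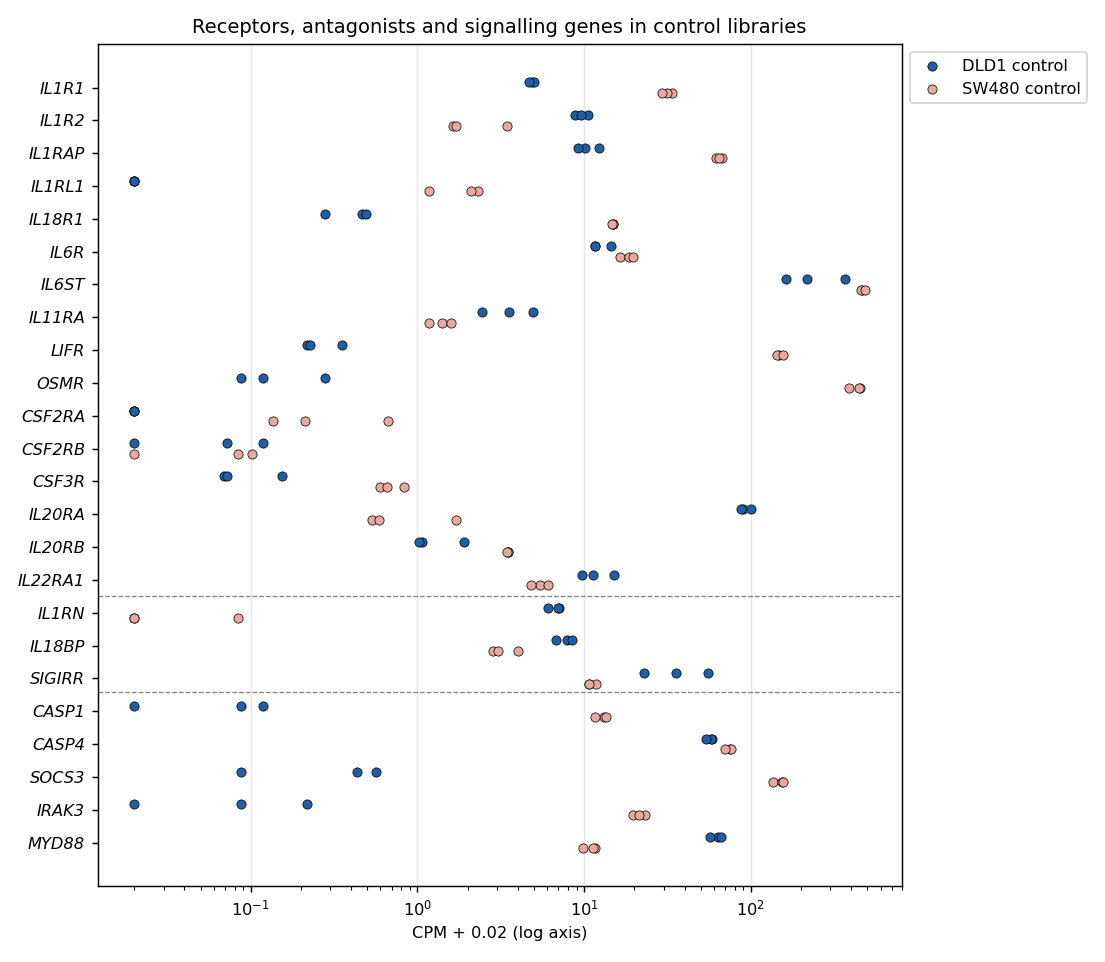
Levels of receptor, antagonist and signalling genes in the control libraries, in CPM with 0.02 added on a log axis, with DLD1 control and SW480 control libraries as separate points. OSMR (0.142 and 429 CPM) and LIFR (0.247 and 149 CPM) are low in DLD1 controls and high in SW480 controls, and IL20RA (92.0 and 0.920 CPM) and IL1RN (6.68 and 0.0214 CPM) are the other way round.

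With lactate, 2 of the 15 tested receptor genes rose in SW480, 0 fell, and 0 were called in DLD1, where 12.4% (SW480) and 0.381% (DLD1) of all tested genes were called. The receptor share in SW480 is near that of all genes. IL6R, the IL-6 binding chain, averaged 32.6 ± 3.46 CPM with lactate and 18.2 ± 1.68 in SW480 controls (log2 fold change 0.86 ± 0.13, edgeR adjusted p = 8.73e-04). IL1RAP averaged 86.1 ± 8.0 CPM with lactate and 64.3 ± 2.92 in SW480 controls (0.44 ± 0.11, edgeR adjusted p = 0.0207), and lost its call without lactate 2 or 3 or control 1 or 3. The median over the receptor genes was 0.15, against -0.01 over all genes. Of 4 antagonist and binding protein genes, 0 were called with lactate in either line. All 4 were called higher in DLD1 controls than in SW480 controls, as were 33.6% of all tested genes. IL1RN, the interleukin-1 receptor antagonist, averaged 6.68 ± 0.569 CPM in DLD1 controls and 0.0214 ± 0.0371 in SW480 controls, where it had 1 read. SIGIRR, an inhibitory receptor of the interleukin-1 family, was higher in DLD1 controls by 1.72 ± 0.24 on the log2 scale (edgeR adjusted p = 1.24e-05), and IL18BP, which traps interleukin-18, by 1.18 ± 0.17 (edgeR adjusted p = 2.56e-05).

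Among 27 other cytokine genes of these families, 14 passed the filter, and 2 rose with lactate in SW480, a share near the 12.4% of all genes. In DLD1 0 of them were called, beside 0.381% of all genes. TSLP, an epithelial alarmin, averaged 7.66 ± 1.40 CPM with lactate and 3.90 ± 0.218 in SW480 controls (log2 fold change 0.99 ± 0.23, edgeR adjusted p = 0.0137), and lost its call without lactate 2 or 3 or control 1 or 3. The other was IL20, the neighbour of IL24, named after its values were seen, with 1.13 ± 0.125 CPM with lactate and 0.349 ± 0.145 in SW480 controls. Its call, at 1.67 ± 0.44 (edgeR adjusted p = 0.0352), was lost without any 1 of the SW480 libraries and had an adjusted p of 0.0514 without the filter, 0.0507 with a replicate block and 0.0621 with DESeq2. OSM, the neighbour of LIF, averaged 2.72 ± 0.751 CPM with lactate and 2.97 ± 0.615 in SW480 controls. TNF and IL3 were listed at 0 counts in all 12 libraries, and whether the counting or its annotation left reads of TNF out is not known, so this is no measure of its expression.

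On a list of inflammasome and processing genes, 7 of 13 passed the filter. With lactate 1 of them rose in SW480, NLRP3, a sensor protein gene named after its values were seen, at or under 0.517 CPM in every SW480 library, and 0 were called in DLD1, beside 12.4% and 0.381% of all tested genes. Its edgeR adjusted p was 0.0476, and the call was lost without the filter, under DESeq2, with the replicate block (0.0741), with the block and the GC content and length trend removed (0.0505), and without any 1 of 9 libraries. CASP1, which encodes caspase-1, averaged 12.9 ± 0.972 CPM with lactate and 12.7 ± 1.04 in SW480 controls, so IL1B and IL18 transcripts in these libraries stood beside CASP1 transcripts. In DLD1 controls CASP1 averaged 0.0554 ± 0.0506 CPM, lower than in SW480 controls by an edgeR log2 fold change of -7.73 ± 0.33 (adjusted p = 1.69e-11). PYCARD, the inflammasome adaptor gene, was also listed at 0 counts in all 12 libraries, with the same doubt as for TNF.

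Of 17 genes for transcription factors and regulators of the NF-kB, AP-1 and C/EBP families, a list chosen with earlier results known, 10 rose and 0 fell with lactate in SW480, where 6.83% of all tested genes were called higher. Nothing is read from that share. The median log2 fold change of the 17 genes was 0.41. FOSL1, an AP-1 subunit, averaged 113 ± 12.2 CPM with lactate and 45.0 ± 6.12 in SW480 controls (1.36 ± 0.17, edgeR adjusted p = 2.21e-04). NFKBIZ, a nuclear cofactor of NF-kB needed for IL6 induction in mouse cells, averaged 92.9 ± 8.64 CPM with lactate and 58.5 ± 7.30 in SW480 controls (0.70 ± 0.13, edgeR adjusted p = 0.00434). ATF3 rose by 0.85 ± 0.19 (edgeR adjusted p = 0.00896), a call lost without SW480 control 1. In DLD1, the AP-1 genes FOS and JUN were the 2 of 17 that rose, against 0.336% of all genes, and 0 fell. The median there was 0.32, against 0.02 over all genes. FOS averaged 7.66 ± 1.25 CPM with lactate and 2.79 ± 0.683 in DLD1 controls (1.41 ± 0.19, edgeR adjusted p = 0.00851), and JUN 64.5 ± 14.3 and 29.4 ± 7.89 (1.10 ± 0.18, edgeR adjusted p = 0.0221). Both calls were lost with DLD1 fitted alone and without DLD1 lactate 1 or control 1, and that of JUN also without lactate 2. The response in DLD1 minus that in SW480 was called for NFKBIZ (-0.99 ± 0.19, edgeR adjusted p = 0.0253) and for FOS (1.29 ± 0.25, edgeR adjusted p = 0.0271). NFKBIZ was among the genes named for a rise in SW480, whose libraries the difference shares, so its value is a description. The call for NFKBIZ was lost without any 1 of 7 libraries and that for FOS without any 1 of 9 and with limma-voom.

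Cytokine messages carry elements that the ZFP36 proteins bind to speed their decay. Of 9 genes listed for control of cytokine message decay, 2 rose and 0 fell in SW480 with lactate, and 0 were called in DLD1. Of all tested genes, 12.4% (SW480) and 0.381% (DLD1) were called. This list was chosen with earlier results known, so nothing is read from the shares. ZFP36L1 averaged 487 ± 70.6 CPM with lactate and 181 ± 33.6 in SW480 controls (log2 fold change 1.46 ± 0.15, edgeR adjusted p = 8.14e-05). ZFP36, which encodes tristetraprolin, averaged 272 ± 46.7 CPM with lactate and 111 ± 21.9 in SW480 controls (1.32 ± 0.19, edgeR adjusted p = 5.77e-04). The median over the 9 genes was -0.06. ZFP36L1 was named for its rise in SW480, so its difference between the lines, which shares those libraries, is a description. The ZFP36L1 response in DLD1 minus that in SW480 was -1.25 ± 0.21 (edgeR adjusted p = 0.0168), a call lost without SW480 lactate 2, SW480 control 1 or 3, DLD1 lactate 2 or 3, or DLD1 controls 2 and 3 together.

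Of 25 genes that carry gp130 and interleukin-1 signals in the cell, 5 rose and 2 fell with lactate in SW480, where 6.83% and 5.59% of all tested genes did. That list too was chosen with earlier results known, so nothing is read from these shares. In DLD1 0 of the 25 genes were called, where 0.381% of all tested genes were, so little can be read from the 0. IRAK2, a kinase-like adaptor of interleukin-1 signalling, averaged 54.2 ± 3.18 CPM with lactate and 25.5 ± 3.63 in SW480 controls (log2 fold change 1.11 ± 0.11, edgeR adjusted p = 7.15e-05). PIM1, a STAT-induced kinase, rose by 1.15 ± 0.16 (edgeR adjusted p = 6.13e-04) and SOCS2 by 0.79 ± 0.14 (edgeR adjusted p = 0.00257). The 2 that fell were SOCS3, the STAT3-induced inhibitor of gp130, and IKBKB, an NF-kB activating kinase, named after their values were seen. SOCS3 averaged 94.4 ± 3.30 CPM with lactate and 149 ± 11 in SW480 controls (-0.63 ± 0.14, edgeR adjusted p = 0.0112), and IKBKB changed by -0.40 ± 0.12 (edgeR adjusted p = 0.0381). The SOCS3 call was lost without SW480 lactate 2 or 3 or control 3, and the IKBKB call without the filter on low counts or without any 1 of 10 libraries. The IRAK2 response in DLD1 minus that in SW480 was -1.04 ± 0.16 (edgeR adjusted p = 0.0142), a call lost without SW480 control 1 or 3 or DLD1 lactate 3. IRAK2 too was named for its rise in SW480, so this difference is a description. At baseline SOCS3 and IRAK3, an inhibitor of interleukin-1 signalling, were near 0 in DLD1 controls, at 0.343 ± 0.248 and 0.0885 ± 0.101 CPM, against 149 ± 11 and 21.3 ± 1.81 CPM in SW480 controls. MYD88, the adaptor of interleukin-1 receptors, averaged 61.8 ± 4.79 CPM in DLD1 controls and 10.9 ± 0.928 in SW480 controls.

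Markers of leukocytes, which also make these cytokines, were looked at beside the cytokine genes. Over 8 myeloid markers the summed level was 93.0 to 113 CPM with lactate and 38.0 to 58.6 CPM in SW480 controls, and 13.3 to 16.5 CPM with lactate and 5.29 to 11.4 CPM in DLD1 controls. In SW480 CD68, a lysosomal protein gene, made up 91.5% to 92.4% of it with lactate and 80.9% to 85.7% in controls, at 95.4 ± 9.12 CPM with lactate and 39.6 ± 9.86 in controls (log2 fold change 1.30 ± 0.22, edgeR adjusted p = 0.00218), while PTPRC, which encodes the leukocyte antigen CD45, stayed at or under 0.258 CPM in every SW480 library and at 0 counts in DLD1. The 6 lymphoid markers summed to at most 0.187 CPM in any library. Fibroblast markers summed to 246 to 259 CPM with lactate and 249.9 to 264 CPM in SW480 controls, so their ranges overlapped. Of 7 fibroblast markers 1 was called higher with lactate in SW480 and 0 lower, beside 6.83% and 5.59% of all tested genes. It was COL1A1, named after its values were seen (log2 fold change 1.23 ± 0.12, edgeR adjusted p = 6.52e-05). The 10 epithelial markers summed to 1400.2 to 1665 CPM with lactate and 1949 to 2299 CPM in SW480 controls, without overlap. The part of CD68, of COL1A1 and of the epithelial markers in the cytokine values was not tested.

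Across all 12 libraries, the genes whose log2 CPM was most like a cytokine gene's were looked up among 11961 protein-coding genes with a mean of at least 1 CPM. For IL1B they were GPRC5A, TSC22D3 and LIF, with Pearson's r of 0.998 for GPRC5A and TSC22D3 and 0.997 for LIF. IL24 was closest to MLKL (r 0.992), CSF3 (0.991) and NAV1 (0.990), and CSF3 to MCL1, ETV3 and C5AR2 (0.997 to 0.998). IL1A was closest to PHKA1, PRKCA and LIMCH1 (0.998 each), and CSF2 to ARNT2 (0.994), KDELR3 (0.990) and HOXB9 (0.989). LIF was closest to IL1B, PLAUR (0.997) and TBC1D8 (0.996). IL6 was closest to MRI1, ENG and ZNF287 (0.999 each), IL18 to KCNIP3, SCCPDH and ABCG2 (0.992 to 0.994), and IL33 to FIG4, EPB41L2 and THBS1 (0.996 each). These r describe 12 libraries that share lines and treatments, and carry no p.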

How the data were processed

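The authors deposited read counts, whole numbers for each gene symbol, from 12 libraries of 2 lines, 3 per group. HISAT2 and GRCh38 are named in the submitters' processing notes. The aligner's version, how reads were counted, on which annotation and with what use of strand are not given in the sources here, so reads of a gene and of one antisense to it cannot be told apart. All columns matched 1 library each by title. No replicate pair agreed within sampling noise.

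Lowly counted genes were dropped (filterByExpr, by group). A robust quasi-likelihood model with TMM scaling and a mean for each group, fitted to the 12 libraries together in R 4.3.3 with edgeR 4.0.16, gave two-sided tests adjusted over 17572 genes. An SE is the size of the log2 fold change divided by the root of its F statistic. The model was tested on simulated data. Limma 3.58.1 and DESeq2 1.42.0 were alternatives, as were other scalings and filters, a replicate block, fits of each line on its own, removal of the trend along GC content and length (natural splines with 5 degrees of freedom, GC content known for 87.7% of tested genes) and leaving out each library. Leaving out DLD1 controls 2 and 3 together was chosen after seeing the data. Correlations used log2 CPM with a prior count of 2. Positions and sequences are from RefSeq on GRCh38.p14.

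The members and gene lists were chosen with earlier results of these data known, so nothing is read from the share of a list called with lactate in SW480. The rule for naming took the 10 members whatever their values, and the 3 genes most like each member with at least 1 CPM on average. It also took up to 3 genes per list and comparison that were called, lowest p first, with at least 5 CPM in some group. Several that met it between the control groups, among them CAPN2, KHSRP, IL32 and FOSL2, are not described. Genes named outside this rule illustrate receptors, markers or neighbours.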

Additional observations from a re-analysis of the deposited data

How the results depend on the processing

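The number of cytokine genes called with lactate in SW480 was 6 and ran from 4 to 7 when 1 library was left out. It was 0 in DLD1, and 0 in each such fit. For the difference between lines it was 0, and 0 to 1 with 1 library left out. The 1 was CSF2 without DLD1 control 2, a fit that called 3.29% of all tested genes. Between the control groups it was 9 throughout those fits. Without the filter on low counts, 1 gene was called in DLD1 (IL1B) and 1 for the difference (IL1A). With the trend along GC content and length removed, 1 was called in DLD1 (IL33) and 2 for the difference (CSF2, LIF). With that removal and the replicate block, 1 was called in DLD1 (IL33) and 3 for the difference (IL1A, CSF2, LIF). Of all tested genes, these fits called 2.37%, 3.08% and 2.87% in DLD1, in that order, against 0.381% in the fit reported. For the difference they called 2.32%, 7.92% and 7.46%, against 0.728%. The cause was not tested. With the replicate block alone the counts were 6, 0, 0 and 9, as without it. Deviations from the group mean of same-numbered lactate and control libraries correlated at 0.07, 0.07 and 0.14 in SW480 and at -0.17, 0.19 and 0.27 in DLD1. In each line 4 of 6 libraries correlated best with their own number. Taken from means of only 3 libraries, these values do not settle whether the numbers pair the libraries.

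Over all genes, the share called ran from 3.83% without SW480 control 1 to 30.2% with the line fitted alone in SW480, where it was 12.4% in the fit reported. In DLD1, where it was 0.381%, it ran from 0.00654% with the line fitted alone to 21.0% without DLD1 control 3, and DESeq2 called 683 genes against 67. For the difference it ran from 0.05% without SW480 control 1 to 8.35% without DLD1 control 3, against 0.728%. Between the control groups it ran from 39.2% without the filter to 77.6%, against 70.8%. The replicate block alone called 184 genes in DLD1 and 274 for the difference, against 67 and 128. Depth limits IL24, CSF3 and IL6 in DLD1, which had at most 3 reads a group, and CSF2, IL11 and IL33 in SW480, which had 2 to 19 reads a library. It also limits IL1B and IL11 in DLD1, at 0.134 to 0.969 and 0.201 to 0.980 CPM a library.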
